A study of Mus musculus with 10 samples.

Results

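Mast cell and eosinophil genes were followed in the colon of mice with colitis, with and without transfer of donor cells treated by extracorporeal photopheresis (ECP). The members were 10 genes: Mcpt1 and Mcpt2 for mucosal mast cells, Mcpt4, Cma1 and Tpsb2 for connective tissue mast cells, Cpa3, Fcer1a and Ms4a2 for mast cells of both kinds, and Siglecf and Epx for eosinophils. All 10 were found by platform gene symbol among the 19505 genes measured, and each had 1 probe set. The samples were whole colon of wild-type C57BL/6 mice on 10 single-colour arrays. The control group (n = 5) had colitis from 3% dextran sulfate sodium (DSS), a polysaccharide that injures the colonic epithelium, in the drinking water and an antibody against the checkpoint receptor PD1 given into the peritoneum. The ECP group (n = 5) received the same DSS and anti-PD1 and, in addition, donor cells that had been treated by ECP, a procedure that irradiates leukocytes with ultraviolet A outside the body in the presence of a photosensitising drug. Every array therefore carries DSS and anti-PD1. No colon without colitis and no transfer of cells without ECP was analysed here, and the labels give neither age nor sex. Values are log2 intensities after robust multi-array averaging (RMA), and errors are SD within a group of 5 arrays unless stated. Whether every array stands for its own mouse is not stated in the labels, and the p-values then measure only the spread between these samples, which may be technical.

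Mast cells are tissue-resident granulocytes that store proteases, heparin and histamine and release them when IgE on their surface is cross-linked. In the mouse gut, mucosal mast cells lie in the epithelium and lamina propria and store the chymases encoded by Mcpt1 and Mcpt2, while connective tissue mast cells lie in the submucosa, muscle and serosa and store the chymases encoded by Mcpt4 and Cma1 and the tryptase encoded by Tpsb2. Eosinophils are granulocytes of the gut lamina propria that carry Siglec-F on their surface and a peroxidase, encoded by Epx, in their granules. These are bulk samples, so fewer cells of a type and less RNA per cell cannot be told apart.

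The chymase genes lie on the same chromosome. On chromosome 14 of the mouse assembly GRCm38.p6 the genes looked up stand in the order Cma1, Mcpt1, Mcpt2, Mcpt9, Mcpt4 and Mcpt8. Other genes between or beyond them were not looked up. The comparison between the 2 kinds of mast cell rests on chymase paralogs and on the tryptase gene Tpsb2, which lies on chromosome 17. No promoter window was available for Mcpt2 and Tpsb2. The windows of a mucosal and of both connective tissue chymase genes are shown here. Each is the 250 bases before the annotated start in RefSeq (GRCm38.p6), with GATAA or its reverse complement TTATC, the core recognised by GATA factors such as the mast cell factor GATA2, in capitals. Mcpt1 lies at chr14:56017714-56017963 on the + strand, Mcpt4 at chr14:56062311-56062560 on the - strand and Cma1 at chr14:55944676-55944925 on the - strand.
Mcpt1: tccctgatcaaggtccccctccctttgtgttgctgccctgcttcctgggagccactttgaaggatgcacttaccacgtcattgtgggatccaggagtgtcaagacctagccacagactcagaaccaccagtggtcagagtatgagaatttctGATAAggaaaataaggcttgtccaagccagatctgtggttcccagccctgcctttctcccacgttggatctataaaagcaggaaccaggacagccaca
Mcpt4: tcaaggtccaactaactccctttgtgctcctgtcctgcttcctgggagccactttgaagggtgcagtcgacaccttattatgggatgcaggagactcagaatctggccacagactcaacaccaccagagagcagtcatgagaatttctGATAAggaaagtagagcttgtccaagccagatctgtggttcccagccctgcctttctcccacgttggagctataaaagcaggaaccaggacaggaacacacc
Cma1: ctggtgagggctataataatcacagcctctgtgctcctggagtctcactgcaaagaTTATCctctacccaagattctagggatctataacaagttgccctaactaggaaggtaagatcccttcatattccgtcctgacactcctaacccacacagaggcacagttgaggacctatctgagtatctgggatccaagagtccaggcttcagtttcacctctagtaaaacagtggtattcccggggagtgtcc
In a global alignment 209 of 258 columns were identical between the Mcpt1 and Mcpt4 windows (81.0%), against 48.5% between Mcpt1 and Cma1 and 49.3% between Mcpt4 and Cma1. The capital motif begins 98 bases before the start in Mcpt1, 102 in Mcpt4 and 194 in Cma1. Of the 8 members with a window in the table, 6 held the motif on either strand (Mcpt1, Mcpt4, Cma1, Cpa3, Fcer1a and Ms4a2), and 22.6% of 32851 windows of the same length held it. The windows of the eosinophil genes Siglecf and Epx did not hold these letters. The motif CACATG or its reverse complement CATGTG, a form of the E-box, was in 2 members (Fcer1a and Siglecf) and in 12.3% of all windows. A match describes the sequence and is not a binding site. Because the chymase genes are close paralogs, signal from one could reach the probes of another, and their values are uncertain to that extent.

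No single gene passed the threshold in this series, with limma and Benjamini-Hochberg adjustment (0 of 19505, 0.0% called at an adjusted p under 0.05, and 5.08% at an unadjusted p under 0.05). Whole-colon identity was plain: the 8 epithelial markers, among them Epcam, Krt8 and Muc2, had a mean level of 12.19 to 12.29 after ECP and 12.00 to 12.34 in the controls. Several control arrays stood apart. Over 8 measured pancreatic acinar genes the mean level reached 10.72, 12.55 and 6.74 in control replicates 1, 4 and 5. It was 5.80 and 5.62 in control replicates 2 and 3 and 5.47 to 5.73 after ECP. All 8 had lower means after ECP, and the size of these differences rests mostly on control replicates 1, 4 and 5. Smooth muscle genes were lowest in control replicates 1 and 4 (9.55 and 9.90, against 10.09 to 10.65 on the other 8 arrays), and all 8 were higher after ECP. B cell genes were highest in control replicate 4 (8.92, against 6.08 to 6.33 in the other controls and 5.83 to 7.08 after ECP), with all 4 measured genes lower after ECP.

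None of the 10 members passed the threshold (limma adjusted p from 0.801 to 1.00), which is the same share as for all genes. Of the 8 mast cell genes 7 were lower and 1 was higher after ECP, and both eosinophil genes were higher, where 46.7% of all genes were lower. The median difference over the 10 members was -0.09, ECP minus control on the log2 scale, against 0.01 over all genes. Differences ran from -0.24 for Mcpt1 to 0.10 for Cpa3. Their 95% confidence intervals differed in width, with the lowest bound at -0.68 for Mcpt1 and the highest at 0.36 for Siglecf. One member, the tryptase gene Tpsb2, had an unadjusted p under 0.05, as had 2.77% of all genes in the same direction, and groups that did not overlap. All of the members' mean levels lay below the median gene (7.07), and 4 of them, Mcpt4, Cma1, Fcer1a and Ms4a2, below the lower quartile (5.25). Apart from Mcpt1, Mcpt2 and Tpsb2, the other 7 had mean levels no higher than 5.65, the 95th percentile of the odorant receptor genes on the array, most of which colon is not known to express.

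**Figure D1:**
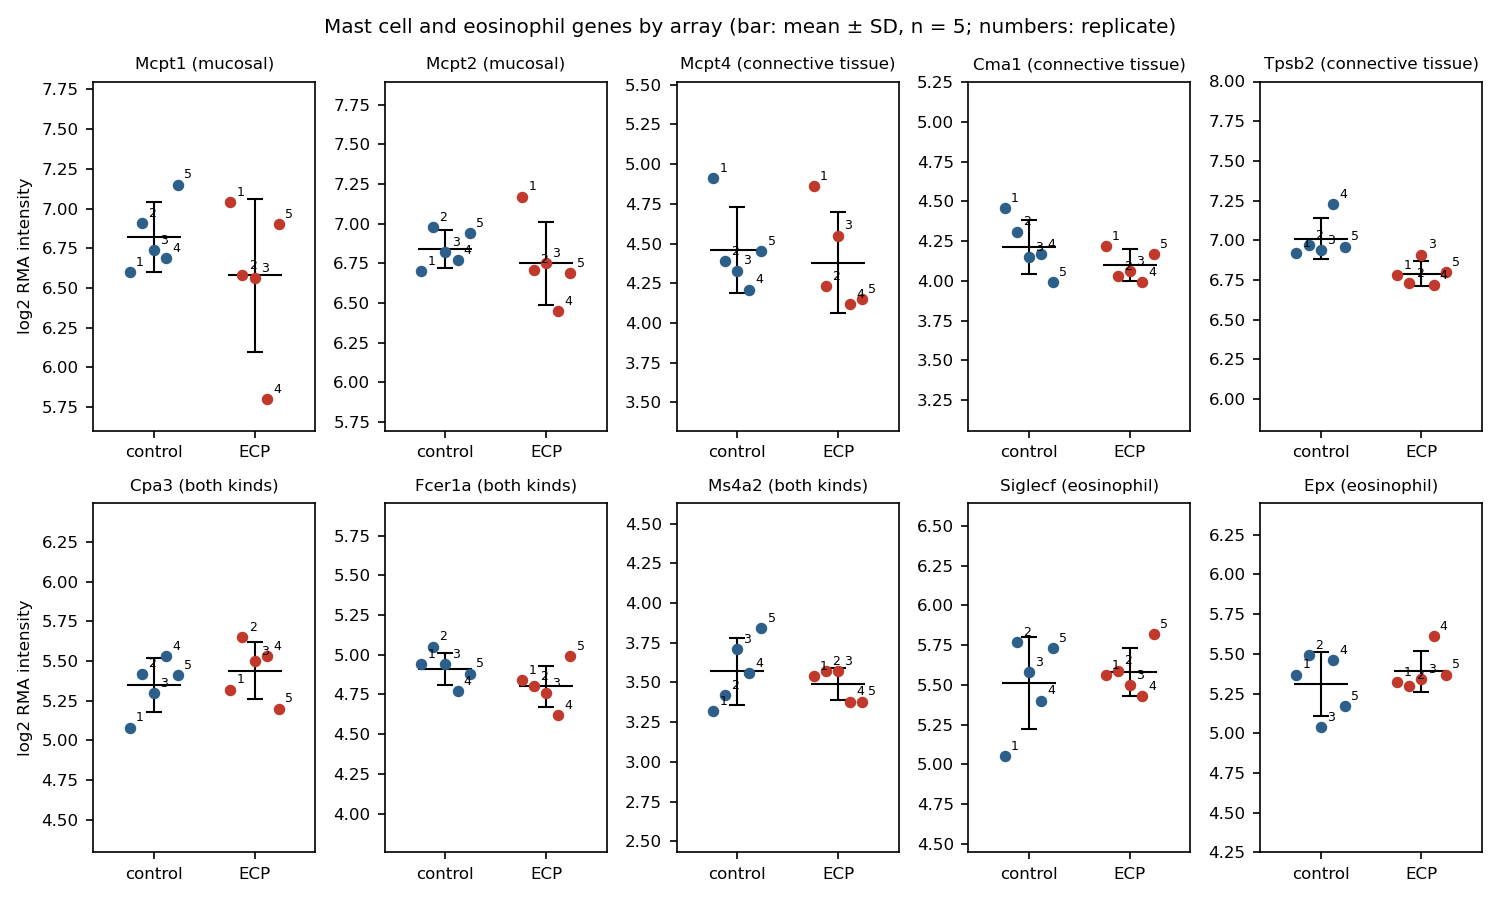
Log2 RMA intensity (vertical axes, each spanning the same range) of the 10 genes in the 5 control and 5 ECP arrays. Points are arrays, numbered by replicate, and bars are mean ± SD. Only for Tpsb2 do all ECP arrays lie below all control arrays, and for Mcpt1 the array of ECP replicate 4 lies at 5.80, below the other 9.

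Mucosal mast cell genes did not differ beyond their spread. Mcpt1, which encodes the chymase mMCP-1 that mucosal mast cells release into the gut and blood, was at 7.04, 6.58, 6.56, 5.80 and 6.90 in ECP replicates 1 to 5 and at 6.60, 6.91, 6.74, 6.69 and 7.15 in control replicates 1 to 5. The groups overlapped, and ECP replicate 4 was the lowest of the 10 arrays. The mean was 6.58 ± 0.48 (SD, n = 5) after ECP and 6.82 ± 0.22 (SD, n = 5) in the controls, a difference of -0.24 (SE 0.20, 95% interval -0.68 to 0.20, limma adjusted p = 0.998). This difference ran from -0.35 with ECP replicate 1 left out to -0.05 with ECP replicate 4 left out. It was -0.36 with array weights and -0.35 without control replicates 1 and 4. Among the members Mcpt1 varied most, with a range of 1.35 over the 10 arrays, and its SD of 0.37 exceeded that of 96.2% of all genes.

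Mcpt2, the gene for the second mucosal protease, was at 7.17, 6.71, 6.75, 6.45 and 6.69 in ECP replicates 1 to 5 and at 6.70, 6.98, 6.82, 6.77 and 6.94 in control replicates 1 to 5. ECP replicate 1 was the highest and ECP replicate 4 the lowest of all arrays, and the 5 controls lay between them. The difference was -0.09 (SE 0.12, 95% interval -0.34 to 0.17, limma adjusted p = 0.998). It ran from -0.19 with ECP replicate 1 left out to -0.01 with ECP replicate 4 left out, and it was -0.16 both with array weights and without control replicates 1 and 4. ECP replicate 4 was thus the lowest array for both mucosal genes.

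Among the connective tissue proteases, Tpsb2 gave the clearest separation of the members without passing the threshold. Tpsb2, which encodes the tryptase mMCP-6 bound to heparin in the granules, was at 6.78, 6.73, 6.91, 6.72 and 6.80 in ECP replicates 1 to 5 and at 6.92, 6.97, 6.94, 7.23 and 6.96 in control replicates 1 to 5. All 5 ECP arrays lay below all 5 controls, with 0.0133 between the highest ECP and the lowest control array. Of all genes 0.831% had ECP arrays that all lay below the controls, and 1 of the 10 members did. The means were 6.79 ± 0.08 (SD, n = 5) and 7.01 ± 0.13 (SD, n = 5), a difference of -0.22 (SE 0.07, 95% interval -0.38 to -0.05), which is 0.860 of the control level (0.768 to 0.963). The unadjusted limma p was 0.0134, and the limma adjusted p over all genes was 0.801. Control replicate 4, the array with the highest acinar and B cell levels, also had the highest Tpsb2. In contrast, control replicate 1, with the second highest acinar level (10.72), had the lowest Tpsb2 of the controls (6.92). A link between the acinar level and Tpsb2 was not tested. Control replicate 4 was then left out. Without it the difference was -0.16, and without control replicates 1 and 4, both high in acinar genes, it was -0.17 (limma adjusted p = 0.728).

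The connective tissue chymases overlapped between the groups. Mcpt4, whose product mMCP-4 is the main chymotrypsin-like enzyme of connective tissue mast cells, was at 4.86, 4.23, 4.55, 4.12 and 4.15 in ECP replicates 1 to 5 and at 4.91, 4.39, 4.33, 4.21 and 4.45 in control replicates 1 to 5. The highest array of each group was replicate 1, and the remaining values lay within 4.12 to 4.55. The difference was -0.08 (SE 0.16, 95% interval -0.43 to 0.27, limma adjusted p = 1.00), and it ran from -0.20 with ECP replicate 1 left out to 0.04 with control replicate 1 left out. Cma1, for the chymase mMCP-5, was at 4.22, 4.03, 4.06, 3.99 and 4.17 in ECP replicates 1 to 5 and at 4.46, 4.31, 4.15, 4.17 and 3.99 in control replicates 1 to 5. Its difference was -0.12 (SE 0.09, 95% interval -0.31 to 0.08, limma adjusted p = 0.998). It was -0.17 without control replicate 5 and -0.06 without control replicate 1, which had the highest Cma1 and the second highest acinar level.

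**Figure D2:**
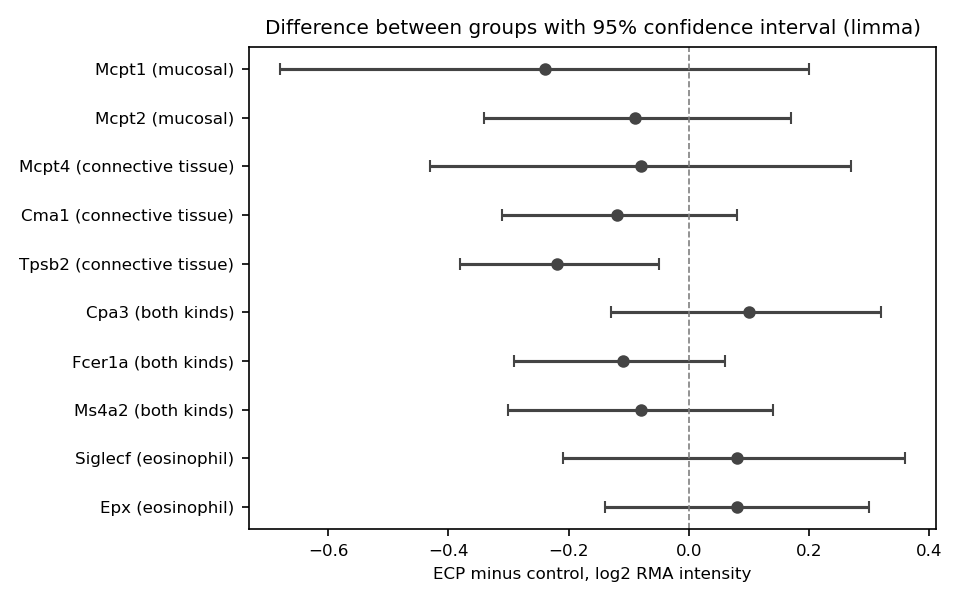
Difference between the ECP and control arrays (horizontal axis, ECP minus control in log2 RMA intensity) for each gene, with the 95% confidence interval from limma (n = 5 per group). The interval of Tpsb2, -0.38 to -0.05, lies below 0 before adjustment for the number of genes, and the other 9 intervals include 0.

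The mucosal and connective tissue genes were also taken apart as means of each kind. The mean of Mcpt1 and Mcpt2 was 6.66 ± 0.35 (SD, n = 5) after ECP and 6.83 ± 0.16 (SD, n = 5) in the controls, a difference of -0.16. The mean of Mcpt4, Cma1 and Tpsb2 was 5.09 ± 0.14 (SD, n = 5) and 5.23 ± 0.12 (SD, n = 5), a difference of -0.14. Both differences moved with the arrays kept: they were -0.03 and -0.10 without ECP replicate 4, -0.21 and -0.09 without control replicate 1, and -0.26 and -0.08 without control replicates 1 and 4. These means over members describe the arrays and carry no test. The mucosal mean minus the connective tissue mean was 1.81, 1.65, 1.48, 1.19 and 1.75 in ECP replicates 1 to 5 and 1.22, 1.72, 1.64, 1.52 and 1.91 in control replicates 1 to 5. The lowest values of this contrast were in ECP replicate 4, where the mucosal mean was low, and in control replicate 1. There the connective tissue mean was high, and the mucosal mean (6.65) was the lowest of the controls. In control replicate 1 the high mean came from Mcpt4 (4.91) and Cma1 (4.46), whose mean levels lay within the range of the odorant receptor genes. Tpsb2 was at 6.92 there, its lowest control value. The group difference of the contrast was -0.03, against an SD of 0.25 after ECP and 0.26 in the controls. This difference of the contrast ran from -0.12 with control replicate 1 left out to 0.07 with ECP replicate 4 left out. Without control replicates 1 and 4 it was -0.18.

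**Figure D3:**
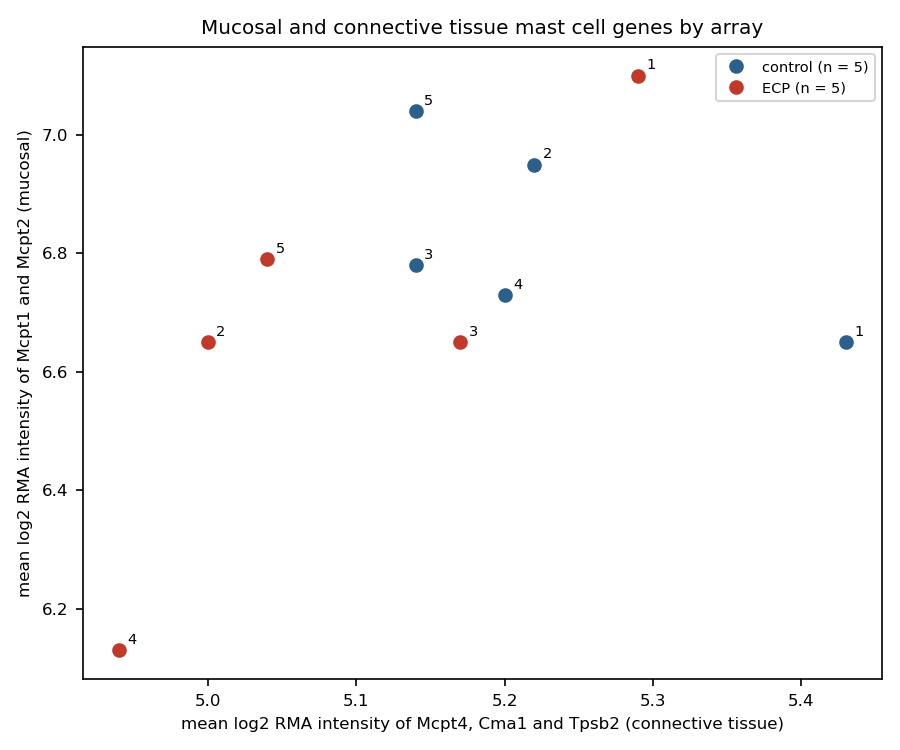
Mean log2 RMA intensity of the mucosal genes (vertical axis) against that of the connective tissue genes (horizontal axis) in each array, coloured by group and numbered by replicate. The groups overlap on both axes, ECP replicate 4 is lowest on both (6.13 and 4.94), and control replicate 1 has the highest connective tissue mean (5.43) with a mucosal mean of 6.65.

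The genes that mark mast cells of both kinds went in different directions, and none differed beyond its spread. Cpa3, which encodes the mast cell carboxypeptidase A3, was at 5.32, 5.65, 5.50, 5.53 and 5.20 in ECP replicates 1 to 5 and at 5.08, 5.42, 5.30, 5.53 and 5.41 in control replicates 1 to 5. It was the 1 mast cell member with a higher mean after ECP, by 0.10 (SE 0.10, 95% interval -0.13 to 0.32, limma adjusted p = 0.998). This difference was 0.03 without control replicate 1 and 0.16 without ECP replicate 5. Fcer1a, for the IgE-binding chain of the high-affinity IgE receptor, was at 4.84, 4.80, 4.76, 4.62 and 4.99 in ECP replicates 1 to 5 and at 4.94, 5.05, 4.94, 4.77 and 4.88 in control replicates 1 to 5. Its difference was -0.11 (SE 0.08, 95% interval -0.29 to 0.06, limma adjusted p = 0.998), or -0.16 without ECP replicate 5 and -0.07 without ECP replicate 4. Ms4a2, for the signal-amplifying beta chain of the same receptor, gave values of 3.38 to 3.57 after ECP and 3.32 to 3.84 in the controls, with medians of 3.54 and 3.56, and differed by -0.08 (SE 0.10, limma adjusted p = 0.998). Its difference was -0.14 without control replicate 1 and -0.01 without control replicate 5. Averaged over these 3 genes the level was 4.58 ± 0.07 (SD, n = 5) against 4.61 ± 0.10 (SD, n = 5).

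Basophils also carry the IgE receptor. Of 5 basophil markers 2 were higher and 3 lower after ECP, 0 passed the threshold, and their mean level was 5.04 to 5.36 after ECP and 5.16 to 5.32 in the controls. Mcpt8, which encodes a basophil protease and lies on chromosome 14 with the chymase genes, was at 5.51 ± 0.18 and 5.47 ± 0.11 (SD, n = 5 each), a difference of 0.04 (SE 0.09, limma adjusted p = 1.00).

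Both eosinophil genes had slightly higher means after ECP, within the spread. Siglecf was at 5.56, 5.59, 5.50, 5.43 and 5.82 in ECP replicates 1 to 5 and at 5.05, 5.77, 5.58, 5.40 and 5.73 in control replicates 1 to 5. The lowest array was control replicate 1, and the remaining 9 lay between 5.40 and 5.82. The difference was 0.08 (SE 0.13, 95% interval -0.21 to 0.36, limma adjusted p = 0.998). It ran from -0.04 with control replicate 1 left out to 0.14 with control replicate 2 left out, and was -0.11 without control replicates 1 and 4. Tuft cells can also carry Siglecf. Of 6 measured tuft cell markers 3 were higher and 3 lower after ECP and 0 passed the threshold, with a mean level of 5.60 to 5.78 against 5.58 to 5.76 in the controls.

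Epx, for eosinophil peroxidase, was at 5.32, 5.30, 5.34, 5.61 and 5.37 in ECP replicates 1 to 5 and at 5.37, 5.49, 5.04, 5.46 and 5.17 in control replicates 1 to 5. ECP replicate 4, the array lowest in both mucosal mast cell genes, had the highest Epx. The difference was 0.08 (SE 0.10, 95% interval -0.14 to 0.30, limma adjusted p = 0.998), and it ran from 0.01 with control replicate 3 left out to 0.13 with control replicate 2 left out. Without ECP replicate 4 it was 0.03. The correlation of Siglecf with Epx across the 10 arrays did not pass the threshold (Pearson r = -0.197, permutation p = 0.578, adjusted p = 0.723 over 45 pairs; Spearman rho = -0.2, permutation p = 0.584, adjusted p = 0.73). Without the 2 arrays whose Siglecf lay farthest from its median, r was -0.351.

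Other mast cell genes lay on both sides of 0. Of 17 measured genes for mast cell identity, mediator synthesis and granules 12 were higher and 5 lower after ECP, 0 passed the threshold, and their median difference was 0.03, within a range of -0.07 to 0.17. Il1rl1, the gene for the IL-33 receptor, has no named probe set here and was not analysed. Kit, the receptor for stem cell factor that mast cells need to survive and that interstitial cells of Cajal in the gut wall also carry, was at 9.13 ± 0.22 after ECP and 9.11 ± 0.39 in the controls (SD, n = 5 each), a difference of 0.02, or -0.24 without control replicates 1 and 4. Gata2, a transcription factor of mast cell and basophil development, differed by -0.02 (SE 0.13) and Hdc, the histamine-forming enzyme, by 0.12 (SE 0.29), or -0.13 without control replicate 5 and 0.38 without control replicate 4. The mast cell transcription factor gene Mitf differed by 0.17 (SE 0.24), with 0.04 without control replicate 1 and 0.32 without ECP replicate 5. Mrgprb2, the receptor through which connective tissue mast cells respond to peptides without IgE, was at 4.06 ± 0.13 against 3.92 ± 0.11 (SD, n = 5 each), a difference of 0.15 (SE 0.08, limma adjusted p = 0.998). Mcpt9, which lies between Mcpt2 and Mcpt4, differed by 0.11 (SE 0.07). Tpsab1, a tryptase gene annotated in this C57BL/6J assembly as a transcribed pseudogene, differed by -0.07 (SE 0.13) beside the -0.22 of Tpsb2, and this pair was not tested against each other.

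Other eosinophil genes did not pass the threshold either. Of 8 measured genes 5 were higher and 3 lower after ECP, and the median difference was 0.05. Prg2, for the granule major basic protein, was at 5.88 ± 0.17 after ECP and 5.81 ± 0.32 in the controls (SD, n = 5 each), a difference of 0.07, or -0.05 without control replicate 4 and 0.17 without control replicate 1. Ccr3, the eotaxin receptor, also differed by 0.07 (SE 0.15), or -0.03 without control replicate 1 and 0.17 without ECP replicate 2. The ribonuclease gene Ear6 differed by 0.05 (SE 0.09), the lipoxygenase gene Alox15 by 0.13 (SE 0.15) and Gata1, a transcription factor of eosinophil, mast cell and red cell precursors, by -0.10 (SE 0.10). Ear1 and Ear2 have no named probe set here and were not analysed.

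Of signals that recruit and feed these cells, none passed the threshold. Of 15 type 2 and growth signal genes 8 were higher and 7 lower after ECP, with a median difference of 0.00 on the log2 scale. The eosinophil growth factor gene Il5 was at 4.27 ± 0.19 after ECP and 4.43 ± 0.27 in the controls (SD, n = 5 each), a difference of -0.16 (SE 0.13, limma adjusted p = 0.998). Its difference was -0.25 without control replicate 5 and -0.07 without control replicate 3. For mast cell growth factors, the genes Il9 and Il3 differed by 0.01 (SE 0.12) and 0.12 (SE 0.15), and Kitl, the gene for stem cell factor, by 0.03 (SE 0.06). The alarmin gene Il33 differed by -0.06 (SE 0.22), or -0.24 without control replicate 5 and 0.10 without control replicate 4. Ccl11, for the eosinophil attractant eotaxin, differed by -0.01 (SE 0.25), or -0.20 without control replicate 1 and 0.12 without control replicate 4. Csf2, for GM-CSF, was at 4.87 ± 0.10 and 5.08 ± 0.23 (SD, n = 5 each), a difference of -0.20 (SE 0.11, limma adjusted p = 0.998). Itgb7, whose integrin guides mast cell precursors and lymphocytes to the gut, differed by -0.16 (SE 0.10), or -0.08 without control replicate 1.

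**Figure D4:**
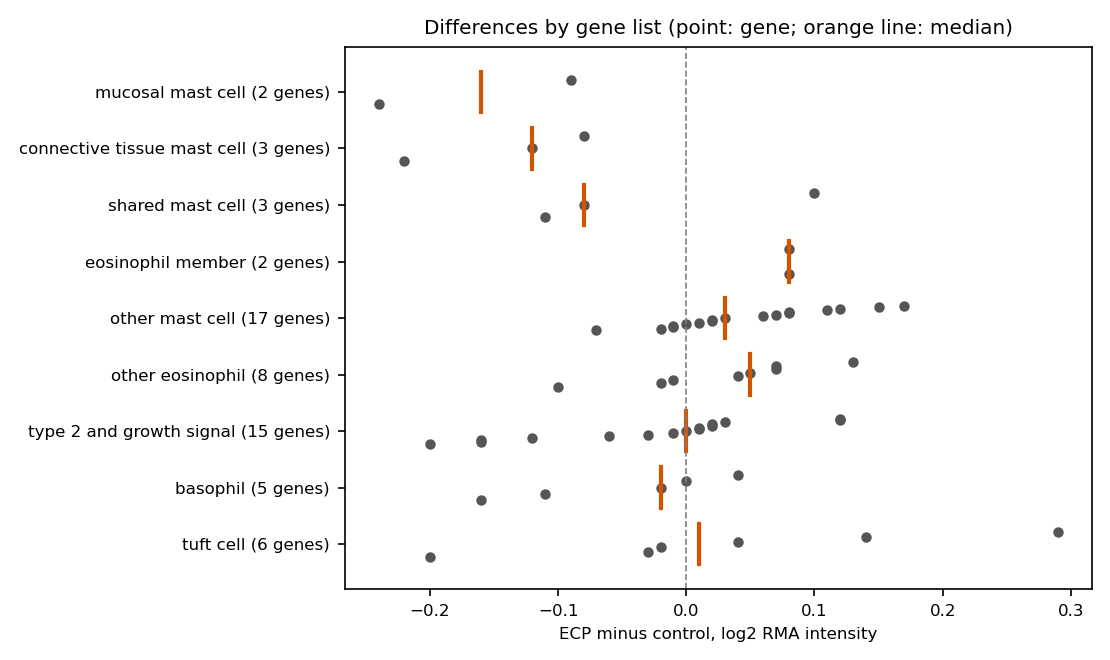
Difference between ECP and control arrays (horizontal axis, ECP minus control in log2 RMA intensity) for each measured gene of the mast cell, eosinophil, basophil, tuft cell and type 2 signal lists. Points are genes and orange lines are list medians, which run from -0.16 for the 2 mucosal genes to 0.08 for the 2 eosinophil members.

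Markers of other cells of the gut wall varied between the groups beside these genes, without passing the threshold. All 4 measured macrophage markers and all 6 dendritic cell markers, which include carriers of Fcer1a in some settings, were higher after ECP, with mean levels of 7.85 to 8.67 against 7.28 to 8.47 and of 5.61 to 5.99 against 5.46 to 5.72. Control replicate 1 had the lowest level of both lists (7.28 and 5.46), and the counts were not repeated without it. Of 7 measured neutrophil markers 6 were lower, with mean levels of 6.17 to 6.67 after ECP and 5.78 to 7.90 in the controls. All 5 mesothelial and all 6 fat cell markers, which belong to the outer layers where connective tissue mast cells also lie, were higher after ECP, with 7.17 to 7.30 against 6.96 to 7.25 and 6.38 to 7.49 against 5.97 to 7.04. Their part in the values of the mast cell genes was not tested. With the smooth muscle level as a covariate the difference of Tpsb2 was -0.21 (limma adjusted p = 0.950), and none of the members passed the threshold. The other differences were -0.26 for Mcpt1, -0.14 for Mcpt2, -0.02 for Cma1, 0.01 for Mcpt4, -0.01 for Cpa3, -0.09 for Fcer1a, -0.20 for Ms4a2 (limma adjusted p = 0.964), -0.05 for Siglecf and 0.15 for Epx.

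No pair of members had a correlation past the threshold after adjustment. Over the 28 pairs of the 8 mast cell genes, 19 correlations across the 10 arrays were above 0 and 9 below, with a median Pearson r of 0.27. The highest r of all 45 pairs was between the 2 mucosal genes, Mcpt1 and Mcpt2 (Pearson r = 0.828, permutation p = 0.00455, adjusted p = 0.205 over 45 pairs; Spearman rho = 0.733, permutation p = 0.0209, adjusted p = 0.384). It was 0.756 without the 2 arrays whose Mcpt1 lay farthest from its median, and 0.723 without ECP replicate 4. Mcpt4 and Cma1, the connective tissue chymases, gave r = 0.603 (permutation p = 0.0635, adjusted p = 0.408; Spearman rho = 0.479, permutation p = 0.165, adjusted p = 0.532), which fell to 0.0307 without the 2 arrays whose Mcpt4 lay farthest from its median and so rests on those arrays. The lowest r was between Ms4a2 and Epx (r = -0.737, permutation p = 0.0155, adjusted p = 0.272; Spearman rho = -0.77, permutation p = 0.0128, adjusted p = 0.384), and it was -0.825 without the 2 arrays whose Ms4a2 lay farthest from its median. Fcer1a and Ms4a2, which encode chains of the same receptor, gave r = -0.0635 (permutation p = 0.86, adjusted p = 0.909; Spearman rho = -0.164, permutation p = 0.655, adjusted p = 0.776), or -0.277 without the 2 arrays whose Fcer1a lay farthest from its median. Of the 45 pairs 6 had a permutation p under 0.05 for Pearson r and 0 after adjustment.

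**Figure D5:**
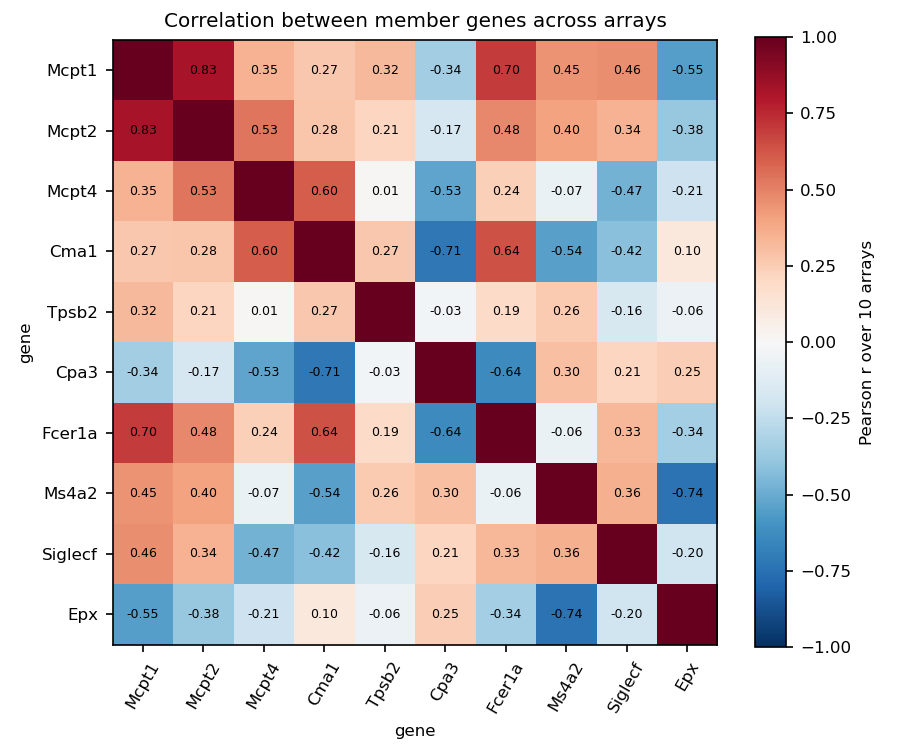
Pearson r between each pair of the 10 genes over the 10 arrays (both axes list the genes, and colour and number give r). Mcpt1 and Mcpt2 share the highest value, 0.828, and Ms4a2 and Epx the lowest, -0.737.

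The genes whose levels across the 10 arrays were most like each pattern, by Pearson r and given as a description with no test, did not include the other mast cell or eosinophil genes of the fixed lists. For the mean of Mcpt1 and Mcpt2 they were Pex10 (r = 0.921), Rhd, Lrrtm2, Mreg and Serpinb12 (0.867). For the mean of Mcpt4, Cma1 and Tpsb2 they were Atad3a (r = 0.930), Samm50, Chac1, Irf1 and Olfr455 (0.906), and for the mean of Cpa3, Fcer1a and Ms4a2 they were Dcbld2 (r = 0.960), Olfr330, Clip1, Ccdc136 and Suco (0.914). For Epx they were Sgsh (r = 0.935), Ddx39a, Zdhhc15, Olfr1361 and Mfap5 (0.882), and for Siglecf they were Nefm (r = 0.929), Prxl2a, Pcsk6, Defb18 and Slc30a6 (0.903). Each set holds the 5 highest values among all genes, and all arrays share 1 set of tissues and 1 normalisation.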

How the data were processed

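The authors deposited 1 table of log2 intensities for 22203 probe sets on 10 arrays, made with RMA in oligo, per the submitters' processing notes, which name no version or option. RMA corrects background, normalises across arrays by quantiles and summarises probes, which hides any shift common to most genes. Array medians were 6.94 to 6.98. No detection calls were analysed here, and the number of arrays limits the precision. Of the probe sets, 19572 had 1 gene symbol in the platform annotation, 0 had several and 2631 had none. Every symbol matched a RefSeq gene table. The probe set with the highest mean was kept for each of 19505 genes.

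Groups and replicate numbers came from the sample titles. All genes were fitted with limma 3.58.1 in R 4.3.3 (lmFit, then eBayes; two-sided tests with neither covariate nor filter). The p-values were adjusted over the whole table by Benjamini-Hochberg and called at 0.05, after a check on simulated data. The changes planted in that check were larger than any difference of the members and left out the most variable genes. It therefore does not cover changes as small as those of the members. Correlations used 100000 permutations. The text names the 10 members, from each of the mast cell, eosinophil and type 2 signal lists the 4 genes with the smallest p and a set of defining genes, and the 5 genes most like each pattern. The members and lists were chosen with earlier results of these data known. Alternatives were median centring, renewed quantile normalisation, 2 filters on dim genes, other handling of probe sets, trend and robust eBayes, array weights, the replicate block, leaving out arrays, and a smooth muscle covariate. Same-numbered arrays did not deviate together (correlations of -0.24 to 0.08 over genes), so the numbers were not taken as pairs.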

Additional observations from a re-analysis of the deposited data

Results flagged for a closer look

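Of 68 sets of 5 values, 8 had an extreme array whose distance from the nearest other array exceeded 0.71 of the whole range, and about 3 such sets arise by chance. Among the members, Tpsb2 was high in control replicate 4 (7.23, next 6.97) and Epx was high in ECP replicate 4 (5.61, next 5.37). Among the other genes, Kit was low in ECP replicate 1 (8.74, next 9.17), as was Mrgprb2 (3.83, next 4.08). Gata2 was low in ECP replicate 3 (5.82, next 6.33), as was Alox15 (4.84, next 5.43). Il5 was high in ECP replicate 5 (4.59, next 4.25) and Itgb7 was high in control replicate 1 (9.33, next 8.99).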

How the results depend on the processing

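None of the members passed the threshold with limma under any of the alternatives that tested them (adjusted p of 0.657 or higher), and Tpsb2 stayed lower in the ECP arrays throughout, from -0.25 to -0.16 on the log2 scale with 1 array left out (without ECP replicate 3 and control replicate 4). The unadjusted limma p of Tpsb2 lay between 0.00945 and 0.0339 when a single array was dropped. Among the alternatives it was above 0.05 only without control replicates 1, 4 and 5, at 0.0748, where the difference was -0.17. Leaving out genes below the median removed all 10 members from the test, and leaving out the lowest quartile left 6. The count of 0 genes called in the whole table became 1 with the lowest quartile left out, 7 with genes below the median left out and 1 with trend and robust eBayes, and ran from 0 to 1 with 1 array left out. With the replicate block the Tpsb2 difference was -0.22 (unadjusted p = 0.0372, limma adjusted p = 1.00) and 0 genes were called, and pairing by number changed no other call. Of the members, 7 kept their sign under every alternative run and 3 (Cpa3, Mcpt4 and Siglecf) did not. Of 21 other named genes 15 did not. Causes were not tested. With array weights the sign turned for Siglecf (-0.05), Kit (-0.10), Ccr3 (-0.04), Il33 (0.0039) and Kitl (-0.002). With the smooth muscle covariate the sign turned for Cpa3 (-0.01), Mcpt4 (0.01), Siglecf (-0.05), Kit (-0.16), Tpsab1 (0.06), Il33 (0.12) and Kitl (-0.02). Without control replicates 1 and 4 the sign turned for Siglecf (-0.11), Kit (-0.24), Tpsab1 (0.01), Ccr3 (-0.07), Alox15 (-0.01), Il33 (0.14), Kitl (-0.03) and Mcpt8 (-0.00025). Without control replicates 1, 4 and 5 the sign turned for Mcpt4 (0.02), Siglecf (-0.09), Kit (-0.25), Mitf (-0.00026), Ear6 (-0.01), Ccr3 (-0.01), Alox15 (-0.002), Kitl (-0.0036) and Mcpt8 (-0.0021). Leaving out 1 array at a time turned the sign for Mcpt4 (-0.20 to 0.04), Siglecf (-0.04 to 0.14), Kit (-0.14 to 0.12), Gata2 (-0.09 to 0.10), Hdc (-0.13 to 0.38), Tpsab1 (-0.16 to 0.01), Prg2 (-0.05 to 0.17), Ear6 (-0.01 to 0.11), Ccr3 (-0.03 to 0.17), Il3 (-0.02 to 0.19), Il9 (-0.04 to 0.10), Il33 (-0.24 to 0.10), Ccl11 (-0.20 to 0.12) and Mcpt8 (-0.01 to 0.12). Without a change of sign, 1 array moved Mrgprb2 from 0.11 to 0.20, Mcpt9 from 0.06 to 0.14, Alox15 from 0.05 to 0.26, Gata1 from -0.16 to -0.04, Kitl from 0.0035 to 0.06, Csf2 from -0.27 to -0.14 and Itgb7 from -0.20 to -0.08. Correlations between members past the threshold numbered 0 in all 4 settings run, including 1 without ECP replicate 4 that was chosen after seeing the data.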

Other observations

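As a scale for dim signal, chosen after the values had been seen, the 1091 odorant receptor genes on the array, most of which colon is not known to express, had mean levels with a 5th percentile of 3.43, a median of 4.05 and a 95th percentile of 5.65. Mcpt1, Mcpt2 and Tpsb2 (3 members) lay above that 95th percentile, and the other 7 members lay within the range. Probe sets differ in affinity, so this describes the range of signal and ranks no transcripts. Of the 25 genes most like the members' patterns, 3 were odorant receptor genes (Olfr455, Olfr330 and Olfr1361).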
